A study of Mus musculus with 9 samples.

Results

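Oxidative phosphorylation subunit genes were taken from the deposited table by symbol: rows that begin with Nduf followed by a, b, c, s or v and a digit, with Cox4 to Cox8, with Uqcr or with Atp5, and the rows Sdha, Sdhb, Sdhc and Sdhd. The rule found 86 of 25965 rows, and 80 of the 86 passed the filter on low values used for every test, which asked 3 or more libraries for a log2 level of 0 or higher and which 14044 rows passed in all. By symbol, 37 rows belonged to complex I (36 passed), 4 to complex II (4 passed), 8 to complex III (8 passed), 19 to complex IV (14 passed) and 18 to complex V (18 passed). The rule also matches 5 symbols that name no subunit. They are Cox4nb, now called Emc8, a component of the endoplasmic reticulum membrane complex; Cox7a2l, which helps join complexes III and IV into supercomplexes; Atp5s, known as coupling factor B; Atp5sl, now called Dmac2, an assembly factor of complex I; and the pseudogene Atp5l-ps1. Ndufa4 carries a complex I name but is known as a subunit of complex IV, and it was counted under its symbol.

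RNA was measured by RNA-seq in 9 libraries of neural stem cell lines of C57BL/6 mice, made from E14.5 embryos that were homozygous for a floxed allele of Smchd1, a gene for a chromatin silencing protein. The 4 del/del libraries (female lines 1, 2 and 3 and male line 5) came from cells that had received a retrovirus with Cre recombinase and a puromycin resistance gene (MSCV-Cre-puro), were under puromycin from 24 h and were harvested on day 7. The 5 fl/fl libraries (female lines 1, 2 and 3 and male lines 5 and 7) came from untransduced cells of the same lines, so virus, Cre and puromycin differ between the groups together with Smchd1. The labels do not say whether each line came from its own embryo, so p-values speak for these cultures only. The main test treats the 9 libraries as independent and measures the spread between them within genotype and sex. It leaves out the pairing within lines 1, 2, 3 and 5, which the fit with the line as a block keeps.

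Levels are log2 RPM, where RPM stands for the reads of a gene scaled to a common library total (reads-per-million). Total reads ranged from 74.0 to 117 M in 8 libraries and were 24.1 M in female fl/fl 2. Summed over all rows, reads in listed genes came to 34.8% to 44.4% of total reads in those 8 libraries and 53.3% in female fl/fl 2. Reads in overlapping rows count for each row, so this share is not the exact part of the reads that fell in genes. Female fl/fl 2 stands apart in depth and in this share. It had also stood apart in earlier results of these data, so it was set apart with that known. The comparison of the genotypes and the line pairs are given with and without that library. Smchd1 was at 5.04 to 5.36 in the del/del libraries and at 6.16 to 6.81 in the fl/fl libraries, a fall of 1.19 on the log2 scale (SE 0.15, adjusted p = 0.00751, limma). Among the marker lists, all 15 markers of neural stem cells passed the filter, with a summed level of 845 to 1141 RPM in del/del and 810 to 1516 RPM in fl/fl libraries, and none of these 15 was called. Of the neuron markers that passed 2 of 9 rose in del/del and of the astrocyte markers 3 of 9, beside 203 of all 14044 genes. Summed levels overlapped, with neuron markers at 291 to 335 RPM in del/del and 251 to 456 RPM in fl/fl libraries. Astrocyte markers were at 329 to 428 RPM in del/del and 262 to 492 RPM in fl/fl libraries. No marker of the oligodendrocyte lineage (7 passed), microglia and leukocytes (4), fibroblasts and mesenchyme (2) or endothelium (2) was called. None of the 5 muscle markers passed the filter.

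Oxidative phosphorylation takes place at the inner mitochondrial membrane. Complex I (NADH dehydrogenase) and complex II (succinate dehydrogenase, also an enzyme of the citrate cycle) pass electrons through complex III (cytochrome bc1) to complex IV (cytochrome c oxidase), which reduces oxygen, and complex V (ATP synthase) uses the proton gradient that complexes I, III and IV build to make ATP. The subunits come from nuclear genes and, apart from complex II, also from mitochondrial DNA, and the nuclear genes are known to share the transcription factors NRF1 and GABPA. Neural stem cells are known for a strong use of glycolysis, with oxidative phosphorylation gaining weight as they form neurons.

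Promoter windows in RefSeq (build GRCm38.p6, the mm10 assembly), from 250 bases before to 50 bases after the start, were found for 69 of the 86 rows. Among those with no entry were Atp5a1, Atp5l-ps1, Cox4i1, Cox4i2, Cox4nb, Cox6a2, Cox6c, Cox8c, Ndufa2, Ndufa4l2, Ndufb9, Ndufs1, Sdhc, Uqcrb, Uqcrc2 and Uqcrq. Both strands were searched for the palindrome of 10 letters bound by NRF1, which stands in capitals in the Ndufa11 stretch below, and for CCGGAAG, the core bound by GABPA and other ETS factors. A match is only a match of letters. The NRF1 motif was in 5 of the 69 (7.25%), namely Atp5g2, Atp5k, Cox6a1, Ndufa11 and Uqcrc1, and in 1.07% of the 27025 genes in the table. The GABPA motif was in 16 of the 69 (23.2%) and in 9.93% of all genes. The sequences below are stretches before the start of genes of complexes I, II, III and V that hold a match, shown as examples of each motif before genes of different complexes. Each is written 5′ to 3′ on the strand of the gene and ends before its first annotated base, with the matched letters in capitals.
Ndufa11, accessory subunit of complex I, plus strand, chr17:56717686-56717761, NRF1 motif: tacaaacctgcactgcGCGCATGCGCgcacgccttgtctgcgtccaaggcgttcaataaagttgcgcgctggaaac
Sdhd, membrane anchor of complex II, minus strand, chr9:50603850-50603909, GABPA motif: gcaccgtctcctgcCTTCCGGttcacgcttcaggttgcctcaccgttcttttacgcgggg
Uqcrh, hinge protein of complex III, minus strand, chr4:116075072-116075171, GABPA motif: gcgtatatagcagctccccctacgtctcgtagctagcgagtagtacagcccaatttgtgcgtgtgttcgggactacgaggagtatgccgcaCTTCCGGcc
Uqcr11, small subunit of complex III, minus strand, chr10:80406831-80406930, GABPA motif: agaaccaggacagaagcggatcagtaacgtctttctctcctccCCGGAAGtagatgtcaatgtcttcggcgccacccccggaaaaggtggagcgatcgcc
Atp5e, epsilon subunit of complex V, minus strand, chr2:174464106-174464205, GABPA motif: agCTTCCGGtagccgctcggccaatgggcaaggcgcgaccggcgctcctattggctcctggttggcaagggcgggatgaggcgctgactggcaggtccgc

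The comparison of del/del with fl/fl asks whether the transcripts of the respiratory chain and ATP synthase differ in cells that lost Smchd1. None of the 80 genes rose and none fell (limma on all 9 libraries with sex as a covariate, adjusted over 14044 genes), while 1.55% of all genes tested passed. With limma's voom on the recovered reads the counts were also 0 and 0, beside 1.82% of all genes. At an unadjusted p under 0.05 there was 1 gene of 80, beside 9.84% of all genes. The fitted differences (del/del minus fl/fl, log2) ran from -0.17 for Atp5b to 0.56 for Atp5sl, with a median of -0.04 beside -0.00 over all genes tested. The smallest adjusted p was 0.473, and with the line as a block it was 0.0968, again with 0 genes called beside 3.99% of all genes. Other settings called 0 of the 80 as well: 0.741% of all genes were called with quantile normalization, 1.27% with median centring, 0.491% with reads in listed genes as the total, 1.92% on log2(RPM + 1), 1.23% with no filter, 0.603% with a filter at a log2 level of 3, 2.83% with the prefix of the library descriptions as a covariate and 1.78% with the line as a block and centring. Leaving out 1 del/del library (lines 1, 2, 3 and 5) left 0 of the 80 beside 0.47%, 0.385%, 0.961% and 0.0142% of all genes, and leaving out fl/fl libraries 1, 3, 5 and 7 left 0 beside 1.4%, 0.669%, 0.833% and 1.79%. With array weights, which give libraries far from the fit less weight, 1 of the 80 rose, beside 9.78% of all genes: Atp5l, subunit g of the ATP synthase membrane part (0.46, SE 0.12, adjusted p = 0.0401, limma). The difference of Atp5l was 0.17 with the prefix as a covariate and 0.03 in the libraries with the prefix RNA- alone, and it was not called in either. The 95% intervals, not adjusted for the number of genes, lay within a 2-fold difference in either direction for 78 of the 80 genes and within 1.5-fold for 50.

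**Figure D1:**
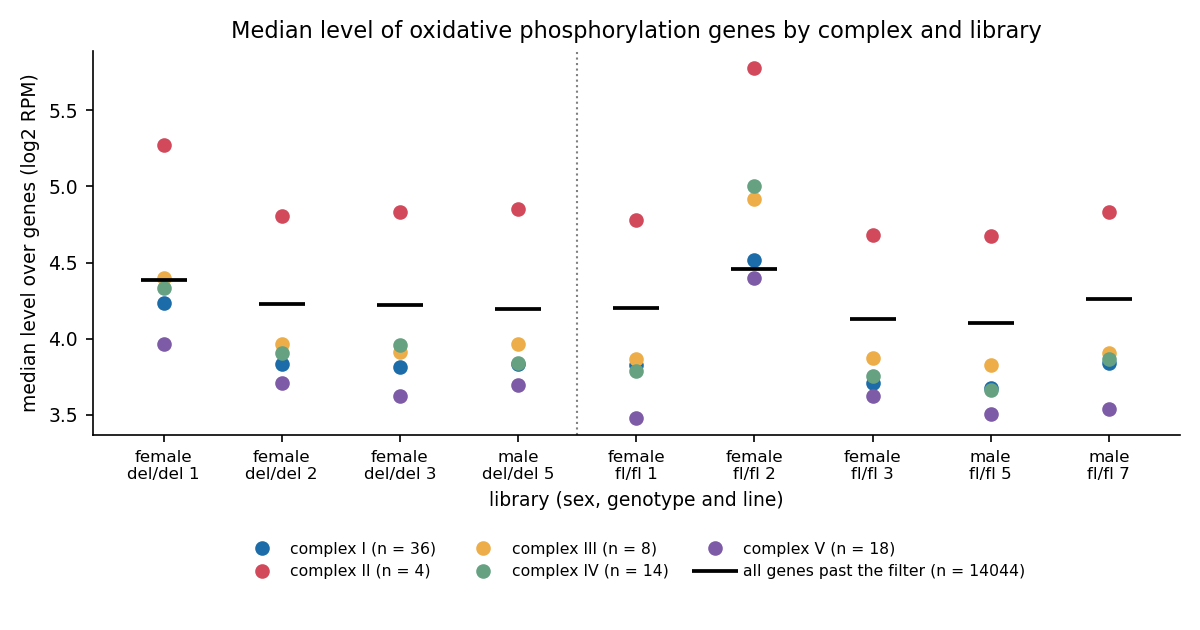
Median level (log2 RPM, vertical axis) over the genes of each complex that passed the filter, in each of the 9 libraries (horizontal axis), with the median of all genes past the filter as a black bar. In female fl/fl 2 all 5 complexes sit above their level in the other 8 libraries, and in female del/del 1 they sit above the other del/del libraries.

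Complex I, the NADH dehydrogenase, had a median difference of -0.04 over 36 genes. Its 7 core subunits, which hold the flavin and the iron-sulfur clusters, had differences of -0.12 to 0.13 (median -0.05), and 28 accessory subunits had -0.16 to 0.17 (median -0.03). Ndufs1, the largest core subunit, was at 6.36, 5.98 and 6.01 in female del/del 1, 2 and 3 and at 5.97 in male del/del 5. In fl/fl it was at 5.94, 6.85 and 5.84 in females 1, 2 and 3, at 5.82 in male 5 and at 6.05 in male 7. The groups overlapped, with the highest level in female fl/fl 2 and the next in female del/del 1. Ndufc2, an accessory subunit of the membrane arm, had the lowest difference of the complex, -0.16 (SE 0.28, adjusted p = 0.997, limma). It was at 4.29, 3.94, 3.96 and 3.95 in the del/del libraries of lines 1, 2, 3 and 5, and at 3.85, 5.28, 3.86, 3.83 and 3.89 in the fl/fl libraries of lines 1, 2, 3, 5 and 7. A single fl/fl library lies above all 4 del/del libraries there, and the other 4 lie below all of them. Ndufv3, an accessory subunit of the NADH-oxidising module, had the highest difference, 0.17 (SE 0.11, adjusted p = 0.800, limma). Female fl/fl 2 was within the range of the other libraries for Ndufv3, at 4.22 beside 4.09, 3.97, 3.94 and 4.24 in the fl/fl libraries of lines 1, 3, 5 and 7. The del/del libraries of lines 1, 2, 3 and 5 were at 4.43, 4.15, 4.32 and 4.18.

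Complex II has 4 subunits, all encoded in the nucleus. Sdha, its flavoprotein, lies at chr13:74322254-74350280. It was at 6.76, 6.33, 6.33 and 6.34 in the del/del libraries of lines 1, 2, 3 and 5, and at 6.26, 7.19, 6.19, 6.16 and 6.33 in the fl/fl libraries of lines 1, 2, 3, 5 and 7. Apart from female del/del 1 and female fl/fl 2, the 7 libraries spanned 6.16 to 6.34. The iron-sulfur subunit Sdhb and the membrane anchors Sdhc and Sdhd followed the same order, with female fl/fl 2 highest (5.78, 5.59 and 5.77) and female del/del 1 next (5.25, 5.07 and 5.29). The fitted differences were -0.02 for Sdha (SE 0.22), -0.08 for Sdhb (SE 0.21), -0.05 for Sdhc (SE 0.21) and -0.01 for Sdhd (SE 0.23), each with an adjusted p of at least 0.997 in limma.

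Complex III had a median difference of -0.08 over 8 genes. The core proteins Uqcrc1 and Uqcrc2 and the Rieske iron-sulfur protein Uqcrfs1 had differences of -0.03, -0.07 and -0.08. Uqcrq, a small subunit, had the lowest, -0.12 (SE 0.21, adjusted p = 0.997, limma), and Uqcr11 the highest, 0.13 (SE 0.15, adjusted p = 0.997, limma). Uqcr11 was at 2.98, 2.67, 2.46 and 2.51 in the del/del libraries of lines 1, 2, 3 and 5 and at 2.43, 2.84, 2.49, 2.18 and 2.48 in the fl/fl libraries of lines 1, 2, 3, 5 and 7. It is 1 of 6 genes among the 80 in which female del/del 1 was the highest library.

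Complex IV had a median difference of -0.06 over 14 genes. The isoforms found in most tissues, Cox4i1, Cox6a1, Cox6b1, Cox7a2 and Cox8a, had differences of -0.15 to -0.04. Cox4i1, the regulatory subunit of the oxidase, was at 5.07, 4.53, 4.54 and 4.55 in the del/del libraries of lines 1, 2, 3 and 5. In the fl/fl libraries of lines 1, 2, 3, 5 and 7 it was at 4.40, 5.77, 4.43, 4.38 and 4.54. Cox8a had the lowest difference of the complex, -0.15 (SE 0.28, adjusted p = 0.997, limma). Cox6b2, known as the testis isoform of the subunit that Cox6b1 supplies in other tissues, had the highest, 0.28 (SE 0.13, adjusted p = 0.534, limma). Its row lies at chr7:4751794-4753094. The del/del libraries of lines 1, 2, 3 and 5 held 3.57, 3.25, 3.40 and 3.30 and the fl/fl libraries of lines 1, 2, 3, 5 and 7 held 3.06, 3.23, 3.04, 2.77 and 3.32. Within each of the 4 lines the del/del library was higher, but male fl/fl 7, which has no del/del partner, was above female del/del 2 and male del/del 5, so the groups overlapped.

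Complex V, counted by symbol, had a median difference of -0.00 over 18 genes. Both ends of the whole range carry its symbol, Atp5b the lower and Atp5sl, which is no subunit, the upper. Atp5b, the catalytic beta subunit (chr10:128083273-128090391), was at 6.50, 5.98, 6.03 and 6.00 in the del/del libraries of lines 1, 2, 3 and 5. In fl/fl it was at 5.89, 7.56, 5.87, 5.92 and 5.93 in lines 1, 2, 3, 5 and 7. The other 4 fl/fl libraries lay within 0.06 of each other and below all del/del libraries, and female fl/fl 2 lay above all 8. The F1 head and central stalk, 5 genes with Atp5b among them, had differences of -0.17 to 0.01. Of the 3 genes that encode the same c-ring protein, Atp5g1 had 0.03, Atp5g2 0.11 and Atp5g3 -0.08, with SEs of 0.14, 0.38 and 0.27. The row named Atp5o spans chr16:91684398-91931687 and contains the row of Itsn1, which held 68750 of the 107388 reads counted for it over all libraries, so its level cannot be read as that of Atp5o.

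Atp5sl and Atp5s, which the rule takes in by name although they are not subunits, had the largest differences of the 80. Atp5sl (chr7:25619414-25625551) was at 2.43, 2.42, 2.54 and 2.44 in the del/del libraries of lines 1, 2, 3 and 5, and at 2.09, 1.05, 2.14, 1.92 and 2.50 in the fl/fl libraries of lines 1, 2, 3, 5 and 7. Female fl/fl 2 was the lowest library and male fl/fl 7 lay within the del/del range. The difference was 0.56 (SE 0.24, adjusted p = 0.473, limma), and without female fl/fl 2 it was 0.31 (SE 0.14, adjusted p = 0.428). Atp5s (chr12:69724962-69744658) was at 2.36, 2.21, 2.50 and 2.23 in del/del and at 2.18, 1.78, 2.08, 1.77 and 2.20 in fl/fl, in the same order of lines. It was the 1 gene of 80 whose groups did not overlap, beside 6.52% of all genes tested, with a difference of 0.31 (SE 0.14, adjusted p = 0.521, limma). The lowest del/del level, 2.21, and the highest fl/fl level, 2.20, nearly met.

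**Figure D2:**
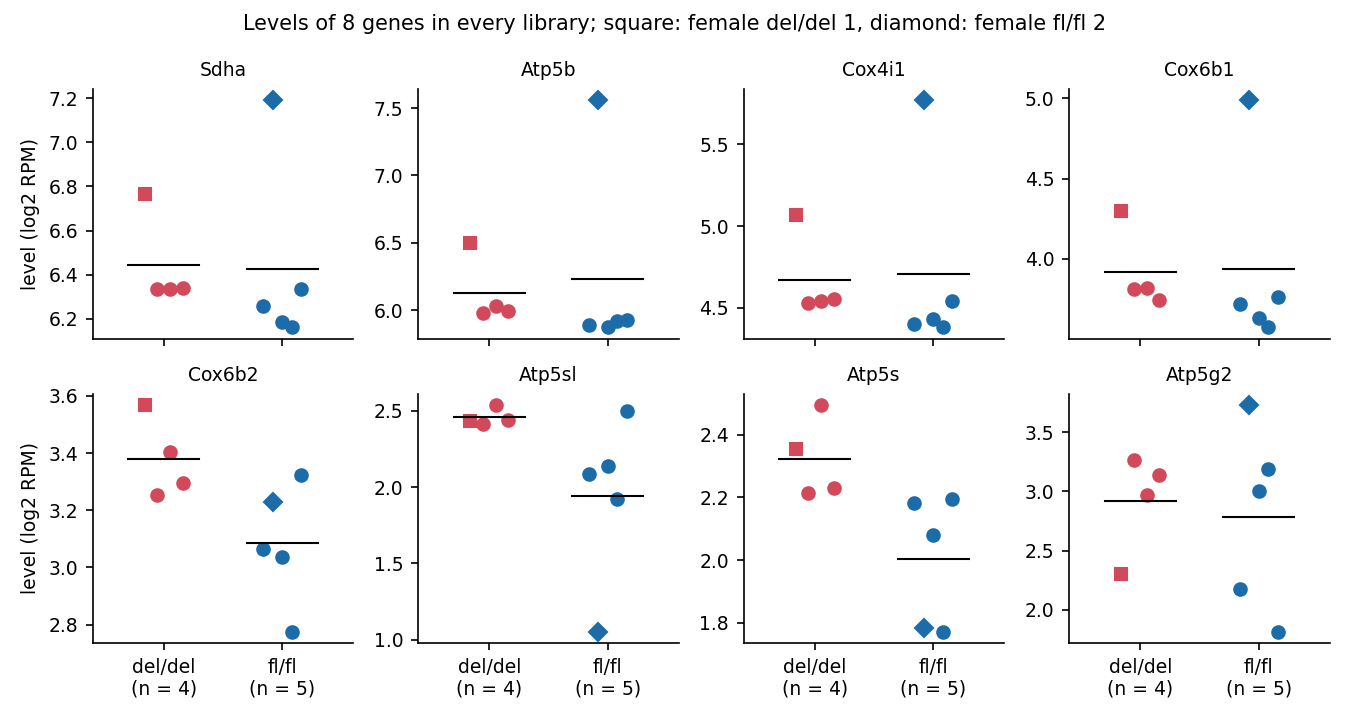
Levels (log2 RPM, vertical axes, each on its own scale) of 8 genes in the 4 del/del (red) and 5 fl/fl (blue) libraries, 1 point for each library and a black line at the group mean. Female fl/fl 2 (diamond) is far above the other libraries for Sdha, Atp5b, Cox4i1 and Cox6b1, within their range for Cox6b2 and below them for Atp5sl.

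Female fl/fl 2 was the highest of all 9 libraries for 71 of the 80 genes (88.8%), beside 48.9% of all genes tested. Its level minus the mean of the other 4 fl/fl libraries had a median of 0.95 over the 80 genes (quartiles 0.69 and 1.16), beside 0.28 over all genes tested. The medians were 0.89 for complex I, 1.01 for complex II, 1.10 for complex III, 1.14 for complex IV and 1.03 for complex V. This is 1 library against 4, with no test of its own. As a ratio to the geometric mean of the other fl/fl libraries, Atp5b stood at 3.14 and Atp5a1, the alpha subunit beside it in the F1 head, at 2.98. Ndufc2 and Cox5a, a subunit of the matrix side of complex IV, both stood at 2.68. Below 0 on the log2 scale were 3 genes of the 80: Atp5sl at -1.11, Atp5s at -0.27 and Cox7a1 at -0.19. As log2 differences again, of the 5 genes whose promoter stretches are printed above Atp5e was at 1.16, Uqcrh at 1.15 and Sdhd at 1.07, and Uqcr11 at 0.45 and Ndufa11 at 0.35. The 16 genes with the GABPA motif had a median log2 difference of 1.01 beside 0.91 for the 51 without it, and the 5 genes with the NRF1 motif 1.18 beside 0.90 for the 62 without it.

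Other lists of metabolic and ribosomal genes, set beside the 80 as a description, were also higher in that library. The median was 1.00 over 83 cytosolic ribosomal protein genes, 0.89 over 18 genes of the citrate cycle, 0.77 over 17 other genes of oxidative phosphorylation such as Cyc1, Cycs and Slc25a4, and 0.73 over 19 genes of glycolysis. It was lower for the 76 genes of the mitochondrial ribosome (0.53), for 51 assembly factors of the complexes (0.39) and for 24 regulators of mitochondrial biogenesis such as Ppargc1a, Nrf1 and Tfam (0.21). Other scalings lowered the values of the 80 genes and of all genes together. With each library centred on its median the 80 genes were at 0.67 and all genes at -0.01, after quantile normalization at 0.61 and -0.06, and with reads in listed genes as the total at 0.41 and -0.27.

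**Figure D3:**
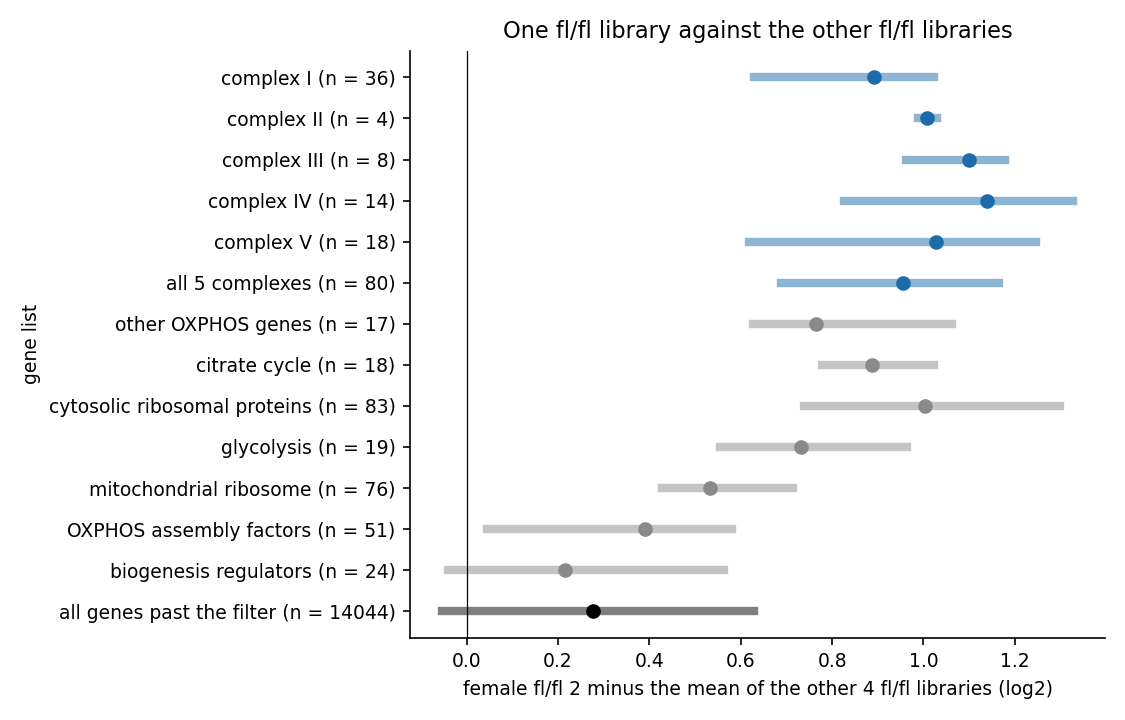
Level in female fl/fl 2 minus the mean of the other 4 fl/fl libraries (log2, horizontal axis), as the median (point) and quartiles (bar) over the genes of each list (vertical axis). The complexes have medians of 0.89 to 1.14, near cytosolic ribosomal proteins at 1.00 and above all genes past the filter at 0.28.

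Level and gene length moved with this deviation over all genes, and their part in it was not tested. Genes with a mean level of 2 to 3 had a median deviation of -0.00, and those above 6 had 0.68; the 13 genes of oxidative phosphorylation at a level of 2 to 3 had 0.83, and the 5 above 6 had 0.96. Genes with under 1 kb of summed exons had 0.49 and those above 5 kb 0.25, beside 1.08 for the 20 short and 0.73 for the 4 long genes of oxidative phosphorylation. Depth moved with it as well, since female fl/fl 2 held the fewest reads, and so did the share of reads in listed genes. Of the 8 marker lists of cell types, 5 had their highest summed level among the fl/fl libraries in female fl/fl 2, neural stem cell markers among them (1516 RPM), and endothelium and muscle had their lowest (2.61 and 0.249 RPM). In bulk samples, fewer cells of a type and less RNA per cell cannot be told apart.

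Without female fl/fl 2 there were again 0 of 80 genes called (limma, 8 libraries), beside 1.62% of all genes, with a smallest adjusted p of 0.217 for Cox7b. The differences lay above 0 for 79 of the 80 genes, beside 10353 of all 14044 genes tested, and Cox4nb was the exception at -0.02. The median of the 80 genes was 0.19 beside 0.08 over all genes tested. The medians were 0.16, 0.19, 0.19, 0.21 and 0.21 for complexes I to V. With each library centred on its median, the 80 genes were at 0.11 and all genes at 0.01, with 0 of 80 called beside 2.09% of all genes. The groups did not overlap for 18 of the 80 genes, each with the higher values in del/del, beside 12.3% of all genes in either direction. Among the 18 were Sdhd, Uqcrh, the F1 subunits Atp5a1 and Atp5b, and the c-ring gene Atp5g3. Sdhd lay at 4.82 to 5.29 in del/del and at 4.65 to 4.81 in the 4 remaining fl/fl libraries. The 95% intervals then lay within a 2-fold difference for 78 genes and within 1.5-fold for 72. Leaving out female del/del 1 as well gave 0 called genes beside 0.555% of all genes.

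**Figure D4:**
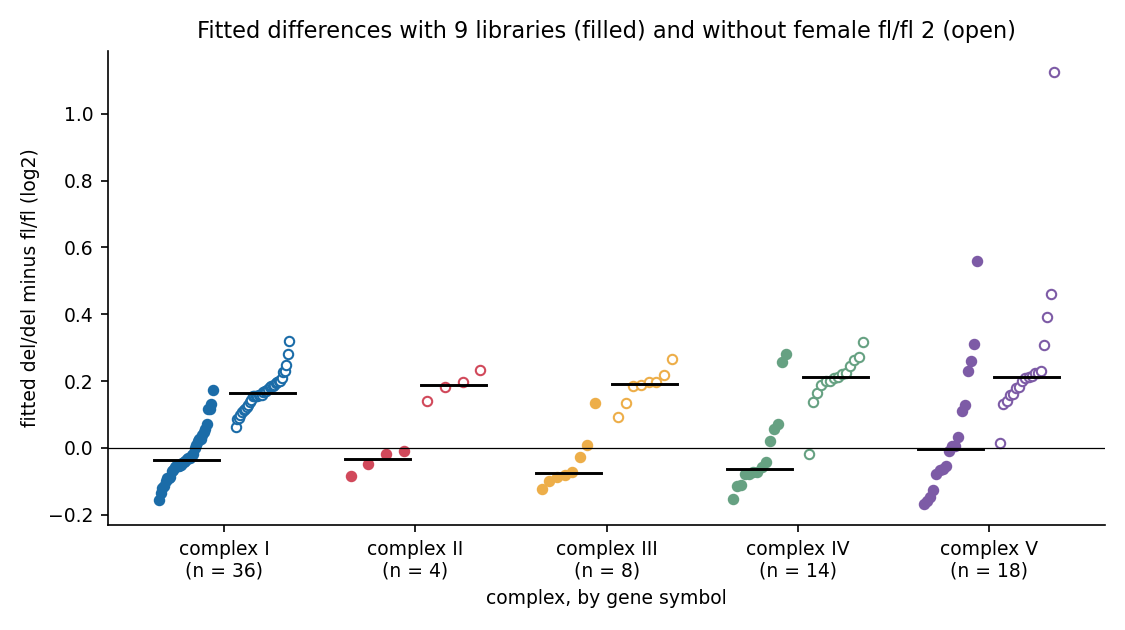
Fitted difference of del/del minus fl/fl (log2, vertical axis) of each gene, by complex (horizontal axis), from all 9 libraries (filled points) and without female fl/fl 2 (open points), with black bars at the medians. The medians of the 5 complexes lie between -0.08 and -0.00 with all libraries and between 0.16 and 0.21 without female fl/fl 2, and no gene passed the test in either fit.

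Within a line, the transduced and the untransduced culture can be set against each other, 1 library of each and so with no test. In line 1 the del/del library was higher for 78 of 80 genes, with a median of 0.45 beside 0.22 over all genes tested. In line 2, the line of female fl/fl 2, it was lower for 76 of 80, with a median of -0.87 beside -0.25. Line 3 had 73 genes higher (median 0.15 beside 0.10) and the male line 5 had 76 higher (0.15 beside 0.08). Female del/del 1 was the second-highest of all libraries for 65 of the 80 genes, and the same share over all genes was not counted. The median level of all genes tested was also high there, at 4.38 beside 4.46 in female fl/fl 2 and 4.10 to 4.26 in the other libraries. The size of the difference in line 1 cannot be told apart from the high level of that del/del library. Before centring, the median of all genes had the same sign as that of the 80 genes in each line. The share of all genes with each sign within single lines was not counted. Centred on each library's median, the 80 genes were at 0.27, -0.64, 0.06 and 0.06 in lines 1, 2, 3 and 5. With that centring the del/del library was higher for 76, 59 and 59 of the 80 genes in lines 1, 3 and 5. In line 2 it was lower for 71.

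The complexes kept close to each other in each line. Medians ran from 0.44 (complex I) to 0.51 (complex III) in line 1 and from -0.97 (complex III) to -0.79 (complex V) in line 2. In line 3 they ran from 0.10 (complex III) to 0.16 (complex IV) and in line 5 from 0.12 (complex I) to 0.17 (complex II). The widest single differences were in line 2, with Atp5b at -1.58, Atp5a1 at -1.50 and Cox8a at -1.41 at one end and Atp5sl at 1.36, Atp5s at 0.43 and Cox7a1 at 0.41 at the other. In line 5 the largest was Cox7a1 at 0.61, from a level of -0.21 in male fl/fl 5 to 0.41 in male del/del 5.

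Higher in del/del in 4 of 4 lines were 4 of the 80 genes (5%), beside 17.9% of all genes: Cox6b2, Atp5sl, Cox7a1 and Atp5s. None was lower in all 4, beside 4.05% of all genes. Without line 2, 69 of the 80 (86.2%) were higher in 3 of 3 lines, beside 52.5% of all genes, and none lower, beside 5.19%. With each library centred on its median these were 46 (57.5%) beside 23.8% and 1 (Atp5g2) beside 18.3%, with quantile normalization 45 (56.2%) beside 19.8% and 2 beside 24.6%, and with reads in listed genes as the total 39 (48.8%) beside 17.8% and 3 beside 26.6%. Higher in 4 of 4 lines were 4 genes with centring (beside 13.8%), 5 with quantile normalization (beside 13.3%) and 7 with reads in listed genes as the total (beside 13.1%). Lower in 4 of 4 were 1 (beside 10.5%), 1 (beside 15.1%) and 0 (beside 8.99%). Cox6b2 and Atp5sl were higher in all 4 lines under each of the 4 scalings. The pairs share the deposited scaling, and the shares of reads in listed genes were higher in del/del than in fl/fl in lines 1, 3 and 5 (44.4% beside 36.9%, 38.8% beside 35.7% and 37.2% beside 34.8%).

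**Figure D5:**
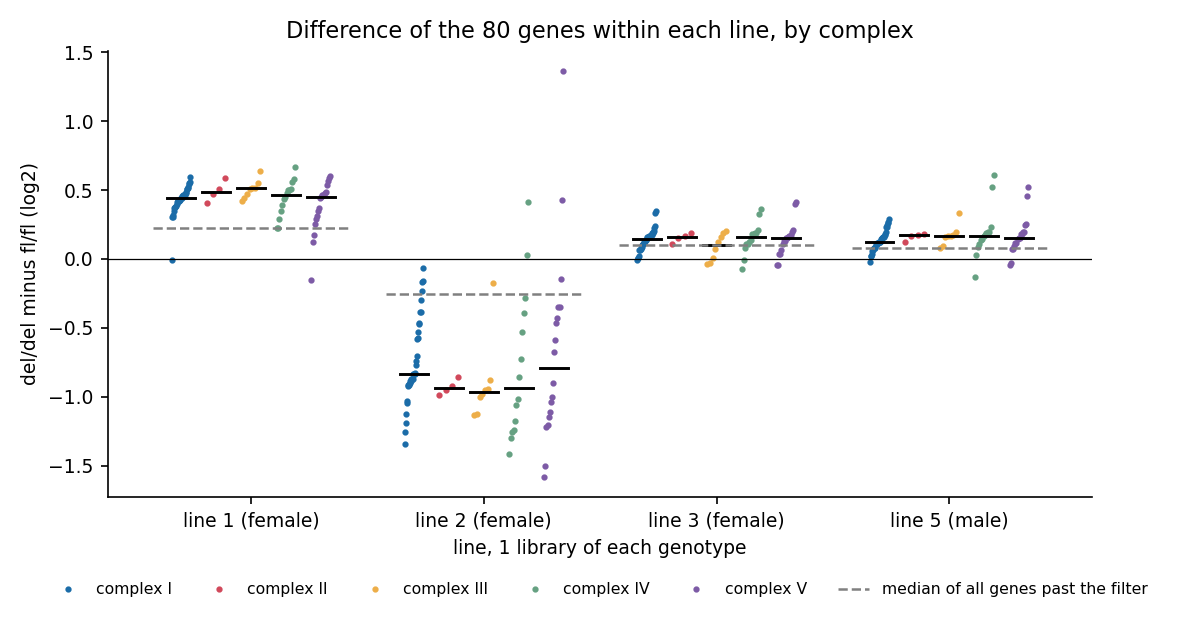
Difference of del/del minus fl/fl within each line (log2, vertical axis), 1 point for each of the 80 genes, by complex (colour) and line (horizontal axis), with black bars at the medians of the complexes and dashed lines at the median of all genes past the filter. Line 2 has its medians between -0.97 and -0.79, and the other lines have theirs between 0.10 and 0.51.

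The spread among replicates came mainly from these 2 libraries. The median SD of the 80 genes was 0.208 over the 4 del/del libraries and 0.0423 without female del/del 1, and it was 0.440 over the 5 fl/fl libraries and 0.0912 without female fl/fl 2. Over all genes tested the same values were 0.155, 0.0693, 0.243 and 0.128. The 80 genes thus had a larger median SD than all genes tested with both libraries in, and a smaller one without them.

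The sexes were compared in a model of the 4 groups. No gene of the 80 was called in the effect in females (median -0.08, beside 0.0142% of all genes called), in males (0.08, beside 0%), in the difference of the effects (beside 0%), or between female and male fl/fl libraries (0.31, beside 0.0356%), all by limma with a smallest adjusted p of 0.713. Without female fl/fl 2 the median difference in females turned to 0.24, beside 0.13 over all genes tested. Between female and male fl/fl libraries the median was then -0.01 beside -0.02 over all genes, in place of 0.31 beside 0.09. No gene of the 80 was called then either, in females (beside 0.0498% of all genes), in males (beside 0%), in the difference (beside 0%) or between fl/fl libraries (beside 0.0427%). With 1 male del/del library, the spread of the other groups was taken to hold for it. Of the 3 genes on the X chromosome, Ndufa1 and Ndufb11 of complex I and Cox7b of complex IV, the differences in females were -0.12, -0.20 and -0.03 with female fl/fl 2 and 0.18, 0.10 and 0.34 without it, and in males -0.03, 0.08 and 0.14.

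Tissue isoforms were mostly near or at 0 reads. Cox8c, a testis isoform, had 0 reads in all libraries, and Cox7b2, also of testis, had at most 9. The heart and muscle isoforms Cox6a2 and Cox8b had 2 to 59 and 0 to 32 reads, and the row of Cox6a2 lies within that of Itgad, so its reads may belong to either. Ndufa4l2, known to be induced by low oxygen, had 4 to 17 reads, and Cox4i2, the isoform of lung, 11 to 90. These rows are the 6 that did not pass the filter. Cox6b2 and Cox7a1 passed. Per kb of exon, Cox6b1 was 2.09 to 5.30 times as high as Cox6b2 over the 9 libraries (median 2.36), and Cox7a2 was 5.94 to 17.7 times as high as Cox7a1, the heart and muscle isoform (median 6.99), with the largest ratio of each pair in female fl/fl 2. The muscle markers summed to 0.249 to 1.12 RPM over all libraries.

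Per kb of exon, the median level over the genes that passed was 17.9 RPM for complex II, 14.9 for complex III, 12.8 for complex IV, 11.1 for complex I and 8.68 for complex V. The highest in each were Sdhd (25.6), Uqcrc2 (21.2), Cox8a (24.1) and Ndufc2 (24.0), and in complex V, leaving out Atp5o, Atp5c1 (28.0), the gamma subunit of the central stalk. The rows count reads over whole gene spans, introns included, so these levels can overstate genes with long introns. Of the 86 rows, 20 overlap another row, such as Ndufa13, which lies within Yjefn3, and Cox4i1 and Cox4nb, which lie within Gm20388. Reads there count for each of the rows. The 13 subunits encoded by mitochondrial DNA had 0 reads in all 9 libraries, so the mitochondrially encoded subunits of complexes I, III, IV and V were not analysed here.

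A further division of the libraries touched single genes. The description of 6 libraries begins with RNA- and that of female del/del 1, female fl/fl 1 and male fl/fl 7 does not. Among fl/fl libraries other than female fl/fl 2, the 15 genes that share at least 15% of their 50-base transcript stretches with other genes had a median difference of -0.11 between those without and with the prefix, and the other 65 genes had 0.14. Atp5l-ps1, the pseudogene, was at -4.21, -4.06 and -2.46 in the 3 libraries without the prefix and at 0.50 to 1.95 in the other 6, and it shares 55.1% of these stretches with other genes. Atp5g2 was at 2.30, 2.18 and 1.81 in the 3 and at 2.97 to 3.73 in the other 6. Between the same fl/fl libraries, Ndufs5 was at -0.53 and Ndufb4 at -0.48, and Atp5l, which is not among the 15, at -0.61. The labels do not say what the prefix stands for. Of the 6 libraries with the prefix alone, 0 of 80 genes were called beside 1.28% of all genes, and the median difference was -0.19, with female fl/fl 2 as 1 of 3 fl/fl libraries.

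The other genes of the pathway were counted from lists of related genes. None rose and none fell among 17 further genes of oxidative phosphorylation, 51 assembly factors, 24 regulators of mitochondrial biogenesis, 18 genes of the citrate cycle, 19 of glycolysis, 76 of the mitochondrial ribosome and 83 cytosolic ribosomal protein genes, with medians of -0.07 to 0.05. Of the assembly factors, Lyrm7, which helps insert the Rieske protein, had the smallest p (0.47, SE 0.17, adjusted p = 0.330, limma). Of glycolysis, Eno2, the neuronal enolase, had 0.50 (SE 0.13, adjusted p = 0.132, limma). Tfam, which packs mitochondrial DNA and helps start its transcription, had -0.22 (SE 0.13, adjusted p = 0.786, limma). Genes of the interferon response were listed only as context, since they had moved in earlier results of these same data. That they passed is therefore no independent result. In the same fit 8 of 9 of them passed with higher levels in del/del, beside 203 of all 14044 genes. Among them were Lgals3bp at 2.06 (SE 0.24, adjusted p = 0.00751, limma) and Rsad2 at 1.75 (SE 0.22, adjusted p = 0.00751, limma).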

How the data were processed

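RNA-seq libraries of 9 cultures were grouped by genotype and sex from their titles. The authors deposited log2 RPM values per row, made with TopHat2 2.0.12, bcl2fastq, the build mm10 and edgeR 3.8.2 per the submitters' processing notes. The read counter, annotation and strand were not given in the sources used here. Deposited values came out as log2 of whole reads times a constant in at least 99.996% of cases per library (tolerance 0.05 reads), with 0 reads entered as 0.9. Rows count reads over whole spans: in all 772 rows that contain another row with at least 900 reads, the outer row had at least the inner row's reads in every library.

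Rows that reached a log2 level of 0 in 3 or more libraries were tested as deposited by limma 3.58.1 under R 4.3.3 (trend, two-sided, sex as covariate, 6 residual degrees of freedom), adjusted by Benjamini-Hochberg over all 14044 with a threshold of 0.05. The sexes were compared in a model of 4 group means. Exon lengths and shared 50-base stretches came from GENCODE release vM21. The script was checked on simulated data. Titles number the lines, and the growth protocol divides each line, so numbers pair libraries. Deviations from group means correlated within female lines 1, 2 and 3 at 0.868, 0.582 and 0.758. They also correlated between lines 2 and 3 (0.729 for del/del 2 with fl/fl 3, 0.494 for del/del 3 with fl/fl 2). Line 1 against lines 2 and 3 ran from -0.841 to -0.572. Each group mean came from 3 libraries, whose deviations cancel for each gene, so some negative correlations between lines are built in. Both female libraries of line 1 lack the RNA- prefix and those of lines 2 and 3 have it. The split of line 1 from the others thus cannot be told apart from the prefix. Alternatives were the line as a block, other scalings, voom, array weights, other filters, a pseudocount of 1, the prefix, and leaving out libraries.

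The members and lists were chosen with earlier results of these data known. Genes named are, for each complex, those with the largest difference in each direction and the 2 with the smallest p, all Sdh genes, paralogous isoforms, and the 2 with the smallest p in other lists; further genes were chosen after their values were seen. Kinases named Rps6k were left out of the ribosomal protein list.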

Additional observations from a re-analysis of the deposited data

Results flagged for a closer look

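The 24 genes of the naming rule that passed the filter, and the medians, were searched for a library far from the rest of its genotype. Dixon's test at the 95% level flagged 1 library for 11 genes in del/del (n = 4) and 15 in fl/fl (n = 5). The genes were measured in the same libraries and named partly by their differences. The flags are therefore not independent, and their number cannot be set against a rate by chance. The same search was not run over all genes. Female fl/fl 2 had stood apart in earlier results of these data, so its flags are no independent result. In del/del the flagged library was female del/del 1 each time, and in fl/fl female fl/fl 2 each time, always as the highest library.

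In female del/del 1 the median level of all 80 genes was 4.29 log2 RPM, with 4.23 for complex I, 5.27 for complex II and 4.40 for complex III. In female fl/fl 2 the median of all 80 genes was 4.68, with 4.51 for complex I, 5.78 for complex II, 4.92 for complex III, 5.00 for complex IV and 4.40 for complex V.

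Of complex II, female del/del 1 stood apart at 6.76 for Sdha, 5.25 for Sdhb, 5.07 for Sdhc and 5.29 for Sdhd, and female fl/fl 2 at 7.19, 5.78, 5.59 and 5.77. Of complex V, female del/del 1 stood apart at 6.50 for Atp5b and 5.16 for Atp5g3, and female fl/fl 2 at 7.56 and 5.91. Of the Cox genes, female del/del 1 stood apart at 5.07 for Cox4i1, 4.09 for Cox6a1, 4.30 for Cox6b1 and 4.16 for Cox8a, and female fl/fl 2 at 5.77, 4.87, 4.99 and 4.98. Female fl/fl 2 alone stood apart at 5.02 for Cox7a2 and 5.51 for Cox7a2l. Of the remaining genes, Ndufc2 was at 4.29 in female del/del 1 and 5.28 in female fl/fl 2, and female fl/fl 2 stood apart at 5.26 for Ndufa4 and 4.55 for Uqcrq. Total reads were 74.0 M in female del/del 1, the lowest of the del/del libraries, and 24.1 M in female fl/fl 2, the lowest of all, and reads in listed genes were 44.4% and 53.3%, the highest of each genotype; their part in these values was not tested.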

How the results depend on the processing

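No gene of the 80 was called under any alternative but array weights, which called 1 (Atp5l). The median difference ran from -0.14 to 0.19 when each library was left out, the highest without female fl/fl 2, and those of complexes I to V from -0.14 to 0.16, -0.15 to 0.19, -0.19 to 0.19, -0.15 to 0.21 and -0.10 to 0.21. In the paired analysis, with the line as a replicate block, 0 genes were called beside 561 of all genes and the median was -0.03; it changed no call of these genes. The sign of the 24 named genes turned in the cases that follow, none of them called, and the cause was not tested. With the block these were Atp5g2 -0.11 and Sdhd 0.00044, and with the block and centring Atp5g1 -0.022 and Atp5g2 -0.14. With quantile normalization they were Atp5g1 -0.015, Cox7a1 -0.038, Sdha 0.055 and Sdhd 0.017, and with reads in listed genes as the total Sdha 0.0047 and Sdhd 0.013. Those scalings put the median of female fl/fl 2 minus the other fl/fl libraries at 0.61 and 0.41, and the median of line 2 at -0.54 and -0.37. With voom they were Atp5g3 0.017, Cox4i1 0.023, Cox6b1 0.035, Cox7a2 0.048, Cox7a2l 0.026, Ndufa4 0.014, Sdhc 0.020 and Sdhd 0.059. With the prefix as covariate they were Atp5g1 -0.0011 and Atp5g2 -0.065, and with the prefixed libraries alone Atp5g1 -0.079, Atp5g2 -0.18 and Ndufs3 -0.012. With array weights they were Atp5b 0.076, Atp5g3 0.12, Cox4i1 0.11, Cox6a1 0.090, Cox6b1 0.11, Cox7a2 0.13, Cox7a2l 0.13, Cox8a 0.043, Ndufa4 0.088, Ndufc2 0.081, Sdha 0.11, Sdhb 0.053, Sdhc 0.091 and Sdhd 0.13. Without female fl/fl 2 and female del/del 1, chosen after seeing the data, they were Atp5b 0.10, Atp5g3 0.12, Cox4i1 0.11, Cox6a1 0.087, Cox6b1 0.11, Cox7a2 0.14, Cox7a2l 0.15, Cox8a 0.048, Ndufa4 0.10, Ndufc2 0.096, Sdha 0.10, Sdhb 0.049, Sdhc 0.095 and Sdhd 0.13. Without female fl/fl 2 and with centring, also chosen after seeing the data, they were Atp5b 0.13, Atp5g3 0.15, Cox4i1 0.15, Cox6a1 0.11, Cox6b1 0.14, Cox7a2 0.14, Cox7a2l 0.12, Cox8a 0.088, Ndufa4 0.12, Ndufc2 0.091, Sdha 0.12, Sdhb 0.064, Sdhc 0.10, Sdhd 0.16 and Uqcrq 0.014. Leaving out 1 library at a time gave Atp5b -0.33 to 0.21, Atp5g1 -0.065 to 0.16, Atp5g2 -0.13 to 0.39, Atp5g3 -0.22 to 0.22, Cox4i1 -0.22 to 0.22, Cox6a1 -0.26 to 0.19, Cox6b1 -0.22 to 0.22, Cox7a2 -0.16 to 0.21, Cox7a2l -0.21 to 0.20, Cox8a -0.30 to 0.17, Ndufa4 -0.24 to 0.20, Ndufc2 -0.29 to 0.17, Sdha -0.13 to 0.20, Sdhb -0.20 to 0.14, Sdhc -0.16 to 0.18, Sdhd -0.13 to 0.23 and Uqcrq -0.23 to 0.091.

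The call of Smchd1 was lost with the prefixed libraries alone (adjusted p = 0.0553, limma) and without male del/del 5 (adjusted p = 0.0930, limma), with a range over the alternatives of 3.09e-05 to 0.0930. Of all genes, 217 were called as reported, 561 in the blocked fit, 1374 with array weights and 2 without male del/del 5. The adjusted p of Atp5sl ran from 0.0588 to 0.825 over its alternatives, that of Atp5s from 0.159 to 0.943 and that of Cox6b2 from 0.0513 to 0.967. With 24.1 M reads, female fl/fl 2 has the coarsest levels, and it and female del/del 1 set most of the standard errors.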
